A study of Rattus norvegicus with 6 samples.

Results

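The platelet-derived growth factor (PDGF) family is made of 4 ligand genes, Pdgfa, Pdgfb, Pdgfc and Pdgfd, and 2 receptor genes, Pdgfra and Pdgfrb, and these 6 genes were followed by their symbols in the platform annotation. Of the 6, 5 have 1 named probe each among 22517 probes, of which 13787 carry a gene symbol. No probe used here is named Pdgfrb, so that receptor was not analysed here. Granulation tissue, which fills a wound as it heals, had grown in cellulose covered with hydroxyapatite, the mineral of bone. The cellulose lay subcutaneously in Sprague-Dawley rats of 10 weeks. Implants were removed after 72 hours (day 3, rats 4, 6 and 7) or 24 hours (day 1, rats 1, 2 and 3), 1 implant from each of 6 rats, and their total RNA was measured on 1-colour Illumina bead arrays. All rats had the same implant, and no unimplanted tissue is among the groups. An implant holds all the cells that entered it, so fewer cells of a type and less RNA per cell cannot be told apart.

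PDGF ligands are secreted dimers that bind receptor tyrosine kinases on fibroblasts, pericytes and smooth muscle cells. Ligand binding pairs 2 receptor chains, which phosphorylate each other and recruit adaptor proteins that drive cell division and migration. PDGF-A and PDGF-B are stored in platelets and are also made by macrophages and endothelial cells, while PDGF-C and PDGF-D are secreted with an extra CUB domain that a protease must remove before they can bind. In wounds the family is known as an early attractant and mitogen for the mesenchymal cells that lay down matrix.

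Pdgfra and Pdgfa were the members with signal clear enough to test. Pdgfra rose 4.87-fold at day 3 (limma adjusted p = 0.00869, n = 3 rats a day), whereas no change was detected for Pdgfa, at 1.03-fold (adjusted p = 0.844). The probes of Pdgfb, Pdgfc and Pdgfd gave signals near or below the median of all probes on every array. Of the probes tested on the whole array, 31.9% changed, 16.7% upward and 15.2% downward, so 1 changed member of 2 tested is not read as a property of the family.

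Values are deposited intensities, already quantile normalized, or their log2 after background correction with an added offset of 50, which understates the changes of dim probes. The median probe had an intensity of 104.05 (log2 6.47) on every array. A probe was tested if it exceeded that median on at least 3 of the 6 arrays, which held for 11591 probes. A change is the log2 value at day 3 minus that at day 1, tested with limma over all tested probes with Benjamini-Hochberg adjustment at 0.05. The p-values rest on the spread between 3 rats a day, which limma moderates toward a value shared by all tested probes. The number of rats limits the precision. Signals of different probes are ranked or summed in places. They are not read as RNA levels of 1 gene relative to another, because probes differ in how well they hybridise.

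Pdgfra encodes the alpha receptor, which binds the A, B and C chains and marks fibroblasts and their progenitors. Its probe had intensities of 1489, 2455 and 1745 in day 3 rats 4, 6 and 7, against 306.5, 257.9 and 775.3 in day 1 rats 1, 2 and 3. On the log2 scale these were 10.53, 11.25 and 10.76 at day 3, against 8.19, 7.92 and 9.57 at day 1. Every day 3 rat lay above every day 1 rat, with a gap of 0.96 between the lowest day 3 and the highest day 1 value. The means were 10.84 ± 0.37 at day 3 and 8.56 ± 0.88 at day 1 (SD, n = 3 each). The change was 2.29 ± 0.43 (SE), with a 95% interval of 1.27 to 3.30, or 2.41-fold to 9.85-fold (limma adjusted p = 0.00869). A larger positive change was seen for 159 of 11591 tested probes, 1.37%. For 49.3% of tested probes the 3 values of day 3 all lay on 1 side of those of day 1, so the separation by itself is common on these arrays.

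The spread of Pdgfra within a day was not even. Day 1 rat 3 had the highest value of its day and day 3 rat 6 the highest of its day, and these arrays also carried the most skeletal muscle signal. The summed intensity of 8 skeletal muscle genes was 23143 in day 3 rat 6 and 1844 and 1069 in the other day 3 rats, against 28688 in day 1 rat 3 and 1544 and 2450 in the other day 1 rats. Of the 7 muscle genes tested, none passed the test between the days, and Myh4 was too dim to be tested. The same arrays, day 3 rat 6 and day 1 rat 3, had the highest summed signal of mural cells (vessel walls), at 11174 and 6337. They were also highest for endothelial cells, at 8806 and 4032. The fibroblast, macrophage and adipocyte sums were highest in day 3 rat 7 and day 1 rat 3. Neither array had the highest platelet or neutrophil sum of its day. Without these 2 arrays the change of Pdgfra was as large, at 2.59 (6.01-fold, limma adjusted p = 0.000927, 2 rats a day). Leaving out 1 rat at a time gave changes between 1.97 and 2.79 and adjusted p between 0.00025 and 0.0403. With all 22517 probes fitted and no filter, Pdgfra passed over all 6 rats (adjusted p = 0.0154) but not without day 3 rat 6 (0.0649), day 3 rat 7 (0.0637) or day 1 rat 1 (0.0640).

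**Figure D1:**
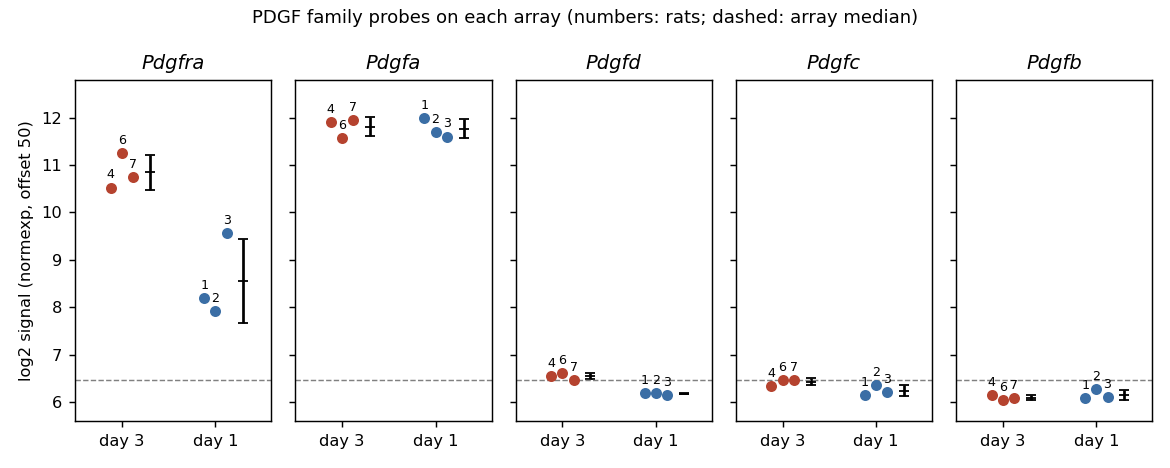
Log2 signal of the 5 PDGF family probes on each array (vertical axis), day 3 left of day 1. Points are rats, labelled by rat number, bars are mean ± SD (n = 3), and the dashed line is the array median of 6.47. Pdgfra lies higher in all 3 day 3 rats, Pdgfa overlaps between the days, and Pdgfd, Pdgfc and Pdgfb lie close to the median or below it.

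Pdgfa encodes the A chain, a ligand of the alpha receptor. Its intensities were 3843, 3065 and 3964 in day 3 rats 4, 6 and 7, against 4071, 3338 and 3123 in day 1 rats 1, 2 and 3. The days overlapped, and the highest value of all belonged to a day 1 rat. The log2 means were 11.81 ± 0.20 at day 3 and 11.76 ± 0.20 at day 1 (SD, n = 3 each). The change of 0.05 ± 0.16 (SE) had a 95% interval of -0.33 to 0.42, or 0.797-fold to 1.34-fold (limma adjusted p = 0.844). Its sign was not stable, and it was -0.08 with array weights and -0.01 with cyclic loess.

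Whether the receptor and this ligand differed in their changes was tested directly, a comparison chosen after the values were seen. Within arrays, log2 Pdgfra minus log2 Pdgfa was 2.24 higher at day 3 than at day 1. All 3 day 3 arrays lay above all 3 day 1 arrays, and the two-sided exact permutation test gave p = 0.1, the smallest p that 3 against 3 arrays allow. The days of Pdgfra already lay 0.96 apart, and Pdgfa stayed between 11.57 and 11.99 on all arrays. This outcome therefore followed from the values already seen, and no more is read from it. No other pair was compared, since Pdgfa was the only ligand tested and Pdgfra the only receptor.

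**Figure D2:**
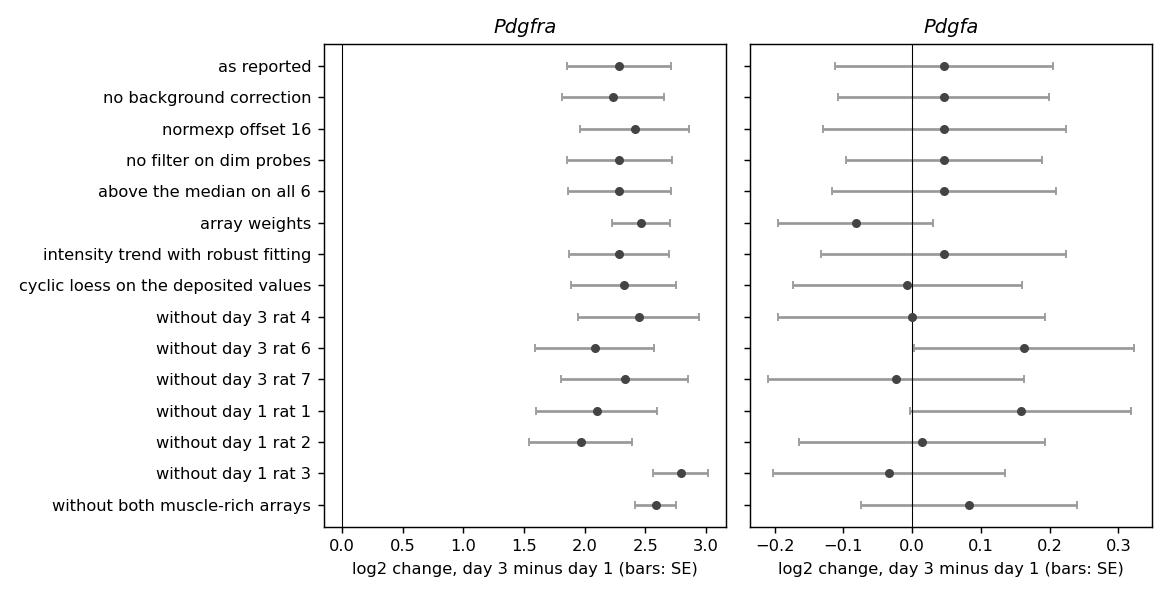
Log2 change of Pdgfra (left) and Pdgfa (right, on a finer scale), day 3 minus day 1, as reported and under 14 other settings of the processing or with rats left out. Points are changes and bars their SE. Pdgfra stays between 1.97 and 2.79, and Pdgfa lies between -0.08 and 0.16.

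The promoter sequences of these 2 genes are shown because they are the members bright enough to be tested. They are the 250 bases before the annotated start in RefSeq's rat assembly GRCr8, 5′ to 3′ on the strand of the gene, with motif matches in capitals, searched on both strands. The motifs were the letters TATAAA for the box that places transcription starts, the promoter element CCAAT, the letters GGGCGG for the GC box that Sp1 binds, and the letters TGACTCA for an AP-1 site. The Pdgfra window is chr14:33408517-33408766 on the minus strand and the Pdgfa window is chr12:20759116-20759365 on the plus strand.
Pdgfra: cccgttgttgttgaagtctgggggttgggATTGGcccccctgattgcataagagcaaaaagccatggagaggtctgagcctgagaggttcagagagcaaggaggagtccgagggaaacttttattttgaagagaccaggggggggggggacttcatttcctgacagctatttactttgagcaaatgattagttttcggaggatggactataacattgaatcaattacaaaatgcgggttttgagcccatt
Pdgfa: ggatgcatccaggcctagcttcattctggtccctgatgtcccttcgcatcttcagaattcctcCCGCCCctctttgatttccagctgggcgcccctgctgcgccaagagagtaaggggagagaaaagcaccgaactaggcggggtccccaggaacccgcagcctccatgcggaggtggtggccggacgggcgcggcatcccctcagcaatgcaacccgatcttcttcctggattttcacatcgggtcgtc
The Pdgfra window held 1 CCAAT match, on the opposite strand, 221 to 217 bases before the start, and none of the other 3 motifs. The Pdgfa window held 1 GC box, on the opposite strand, 187 to 182 bases before the start, and none of the other 3. CCAAT occurs in 34% and a GC box in 30.5% of 33469 rat promoter windows of this length. TATAAA occurs in 12.9% and AP-1 sites in 4.05%. The G and C content was 47.2% for Pdgfra and 60.8% for Pdgfa. The arrays measured RNA and not binding at these sequences.

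Pdgfd encodes the D chain, a ligand that acts mainly through the beta receptor. Its intensities were 109.2, 112.9 and 104.03 in day 3 rats 4, 6 and 7, against 88.1, 88.3 and 86.5 in day 1 rats 1, 2 and 3. The day 3 values lay near the array median, 2 of them above it, and the day 1 values all lay below it, so the probe was above the median on too few arrays to be tested. The days did not overlap, which also held for 49.3% of tested probes. That share does not cover probes too dim to be tested, such as Pdgfd. The log2 means were 6.54 ± 0.07 at day 3 and 6.18 ± 0.02 at day 1 (SD, n = 3 each). Against the array median that stands in for the day 1 level, the day 3 signal was at least 1.05-fold higher. Where all 22517 probes were fitted without the filter, Pdgfd passed with a change of 0.37 (limma adjusted p = 0.0183), beside 15.3% of probes that passed in that fit. It no longer passed without day 3 rat 4 (adjusted p = 0.0711), day 3 rat 6 (0.0707) or day 1 rat 1 (0.0593), nor without both muscle-rich arrays (0.0932).

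Pdgfc encodes the C chain, a ligand of the alpha receptor. Its intensities were 96.5, 103.8 and 103.5 in day 3 rats 4, 6 and 7, against 86.3, 97.4 and 89.2 in day 1 rats 1, 2 and 3. All 6 values lay below the array median, and day 1 rat 2 lay within the range of day 3. The difference of the log2 means was 0.18, and the fit without a filter gave a 95% interval of -0.02 to 0.39 (limma adjusted p = 0.242).

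Pdgfb encodes the B chain, which binds the alpha and the beta receptor and recruits pericytes to new vessels. Its intensities were 85.7, 81.5 and 83.4 in day 3 rats 4, 6 and 7, against 82.6, 92.8 and 83.8 in day 1 rats 1, 2 and 3. The days overlapped and all 6 values lay below the array median. The log2 means differed by -0.06, with a 95% interval of -0.26 to 0.14 in the fit without a filter (limma adjusted p = 0.762). Signals this low do not show whether Pdgfc or Pdgfb was absent or unchanged. Their mean signals ranked at the 41.0th and 20.7th percentile of all probes, and that of Pdgfd at the 43.1st.

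**Figure D3:**
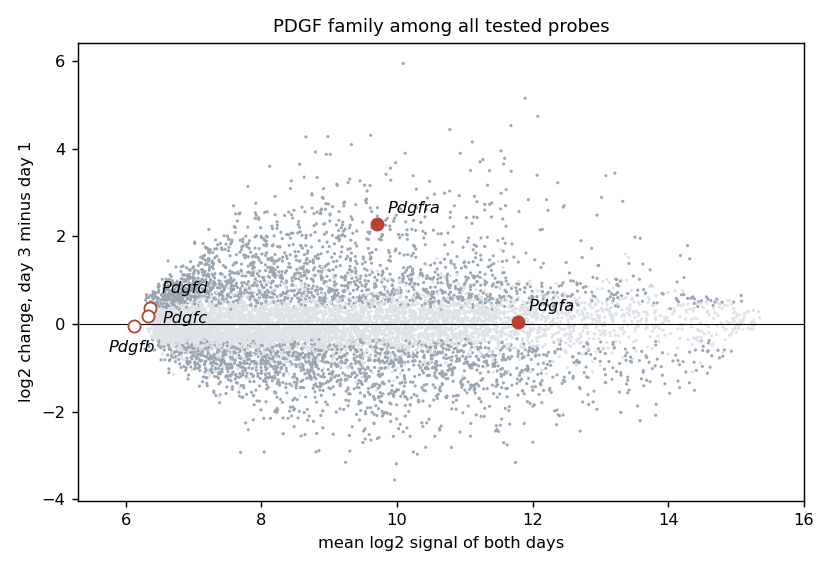
Log2 change, day 3 minus day 1 (vertical axis), against the mean log2 signal of both days (horizontal axis) for 11591 tested probes, darker where limma adjusted p was under 0.05. Filled circles are the tested members, with Pdgfra at a change of 2.29 and Pdgfa at 0.05, and open circles are the 3 members too dim to be tested.

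The genes whose log2 profile over the 6 arrays, centred on each probe, lay near that of Pdgfra included Cpq and C4b, both among the 3 nearest of 8504 named probes compared. Their root mean square differences from Pdgfra were 0.17 and 0.18. Cpq encodes a carboxypeptidase, and it had 10.50, 10.72 and 10.73 in day 3 rats 4, 6 and 7, against 7.97, 7.70 and 9.32 in day 1 rats 1, 2 and 3. C4b encodes complement component C4, with a change of 2.15. The nearest profiles to Pdgfa were those of Galnt10, Pals2 and Cct4, with differences of 0.04, 0.05 and 0.05 and changes between 0.05 and 0.10.

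Cells that carry or make members of the family were followed by marker lists. Of 9 fibroblast markers, 8 rose and none fell (median change 3.34), and Pdpn had -0.26 (adjusted p = 0.159). Over all tested probes 16.7% rose and the median change was -0.05. Col1a1, a collagen I subunit, was 35.5-fold and Lum, a proteoglycan on collagen fibrils, 26.6-fold higher at day 3. The summed fibroblast signal was 143300 to 160810 at day 3, against 33875 to 74472 at day 1, and day 1 rat 3 was the highest of day 1 here as well. These markers moved the same way as Pdgfra, and their part in its rise was not tested.

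Mural cells, the pericytes and smooth muscle cells of vessel walls, are known to carry the beta receptor. Of 6 mural markers tested, 2 rose and none fell (median change 1.20). The changes of the 6 lay between 0.59 and 1.97. Over all tested probes 16.7% rose and 31.9% changed in either direction. With 6 genes tested, nothing is read from the mural count. Cspg4, the NG2 proteoglycan of pericytes, rose 3.91-fold, and Abcc9, a potassium channel subunit of pericytes, rose 2.16-fold. Rgs5 and Notch3 were too dim to be tested. The summed mural signal was 7500 to 11174 at day 3, against 2055 to 6337 at day 1. Of 5 endothelial markers tested, 4 rose (median change 1.28), with Vwf up 4.18-fold and Emcn up 3.68-fold. Emcn did not pass when day 3 rat 4, 6 or 7 was left out (adjusted p up to 0.0748).

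Platelets are a store of PDGF-A and PDGF-B protein, which RNA arrays do not measure. The platelet chemokine Ppbp was at least 6.43-fold lower at day 3 (limma adjusted p = 0.00447), with all day 3 values below the array median. Pf4, another platelet chemokine, had a change of -0.69 (adjusted p = 0.0619), and Gp5, Gp9 and Treml1 were too dim to be tested. The summed signal of the 5 platelet genes was 10949 to 15463 at day 3, against 16891 to 29879 at day 1. Most of this sum is the signal of Pf4, which did not pass, and 2 of the 5 genes lay at or below the median on every array. Of 6 macrophage markers tested, 3 rose and 1 fell, with C1qa up 5.43-fold and C1qb up 5.26-fold. The third to rise was Cd163, a scavenger receptor, with a change of 1.48 and days that overlapped (limma adjusted p = 0.0477), and Cd14, a co-receptor for lipopolysaccharide, fell by 1.78 (adjusted p = 0.00187). C1qa was lost without day 1 rat 1, day 3 rat 6 or day 3 rat 7 (adjusted p up to 0.0539), and C1qb also without day 1 rat 2 (up to 0.115). Of 7 neutrophil markers tested, 6 fell, with Retnlg 8.94-fold and Mmp8 5.88-fold lower. Beside these macrophage and neutrophil counts, 16.7% of all tested probes rose and 15.2% fell. None of 3 adipocyte markers tested passed.

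**Figure D4:**
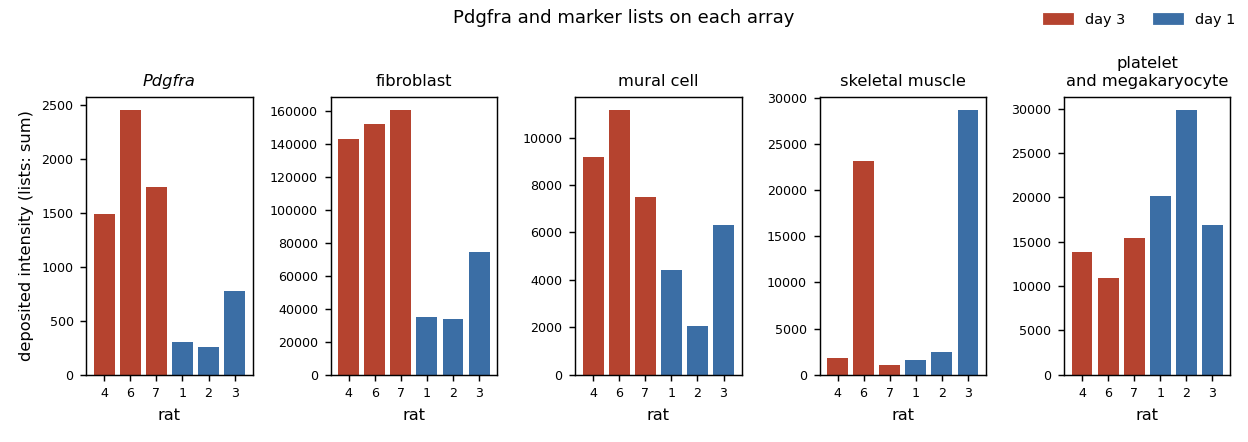
Deposited intensity of Pdgfra and summed intensity of 4 marker lists (vertical axes, each from 0 with its own scale) for each rat, day 3 rats left of day 1 rats. Fibroblast sums are 143300 or more in day 3 rats and 74472 or less in day 1 rats, and the skeletal muscle sum is high only in day 3 rat 6 and day 1 rat 3.

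Around the ligands, 4 of 7 tested genes that process or bind PDGF rose and none fell; their median change was 0.89, against -0.05 over all tested probes, of which 16.7% rose. Sparc, a matrix glycoprotein that binds PDGF-B, rose 10.9-fold, and its means were 14.93 ± 0.09 at day 3 and 11.49 ± 0.87 at day 1 (n = 3 each, SD). Plat, tissue plasminogen activator, which cuts the CUB domain from PDGF-C, rose 2.60-fold (adjusted p = 0.0217). Nrp1, a neuropilin that acts as a co-receptor, rose 2.75-fold (adjusted p = 0.0279). A2m, a plasma protein that binds growth factors, was at least 1.51-fold higher at day 3. Plau, urokinase, which activates PDGF-D, had a change of 0.67 (adjusted p = 0.161). Plat did not pass without day 1 rat 1 or any single day 3 rat (adjusted p up to 0.0781), and Nrp1 without any single day 3 rat (up to 0.0917). Without day 3 rat 4, 6 or 7 the list had 2 changed genes.

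Behind the receptors, 2 of 20 tested adaptors and effectors rose and 6 fell, and their median change was -0.25, where 16.7% of all tested probes rose and 15.2% fell. In either direction 8 of the 20 changed, beside 31.9% of all tested probes, and no more is read from these counts. Plcg1, a phospholipase that docks on activated PDGF receptors, rose 2.84-fold to 10.37 ± 0.16 at day 3, against 8.86 ± 0.46 at day 1 (SD, n = 3 each; limma adjusted p = 0.00445). Nck2, an SH2 and SH3 adaptor, rose 2.24-fold, and Nck1, its close relative, fell by 0.54. The other tested probe of Nck2 had a change of -0.07 (adjusted p = 0.68), so the probes of this gene disagree. Pik3cb, a catalytic subunit of phosphoinositide 3-kinase, fell to 7.24 ± 0.12 at day 3, against 8.23 ± 0.22 at day 1. The list had 4 changed genes without day 3 rat 6 and 5 without day 3 rat 7. Nck2 did not pass without day 1 rat 1, day 3 rat 6 or day 3 rat 7 (adjusted p up to 0.0547).

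Of 14 tested genes that restrain receptor signalling, 6 fell and none rose, and the list's median was -0.50, where 15.2% of all tested probes fell. Dusp1, a phosphatase of MAP kinases, fell 2.15-fold, and Ptpn1, a tyrosine phosphatase that acts on PDGF receptors, fell 2.08-fold. Socs3, an inhibitor of cytokine signalling, fell 1.77-fold, but did not pass without day 1 rat 1 or any single day 3 rat (adjusted p up to 0.118). Spry1, Spry2, Spred1 and Spred2, inhibitors of the Ras pathway, had changes between -0.49 and 0.05 and did not pass.

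Of 11 tested early genes that growth factors induce in cultured fibroblasts, 6 fell and none rose, and the list's median was -1.13, beside the same 15.2% of all tested probes. Ier3, a stress-induced survival gene, fell 3.34-fold, Ccl2, a monocyte chemokine, fell 2.84-fold and Ier2, another immediate early gene, fell 2.78-fold. Ccl2 had 13.06, 12.36 and 12.58 in day 3 rats 4, 6 and 7, against 14.11, 14.49 and 13.91 in day 1 rats 1, 2 and 3. Fos had a change of -0.92 (adjusted p = 0.0733), Egr1 of -0.35 (adjusted p = 0.301) and Myc of -0.31 (adjusted p = 0.232). Neutrophil markers fell between the same days, and their part in these falls was not tested.

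Among the other receptors of the class to which the PDGF receptors belong, and their ligands, 3 of 7 listed genes were tested. Csf1, the ligand of the macrophage receptor, fell 3.67-fold to 11.06 ± 0.23 at day 3, against 12.94 ± 0.39 at day 1 (SD, n = 3 each; limma adjusted p = 0.00187). Flt3 and Il34 had changes of -0.16 and 0.23 and did not pass, and Kit and Kitlg were too dim to be tested.

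**Figure D5:**
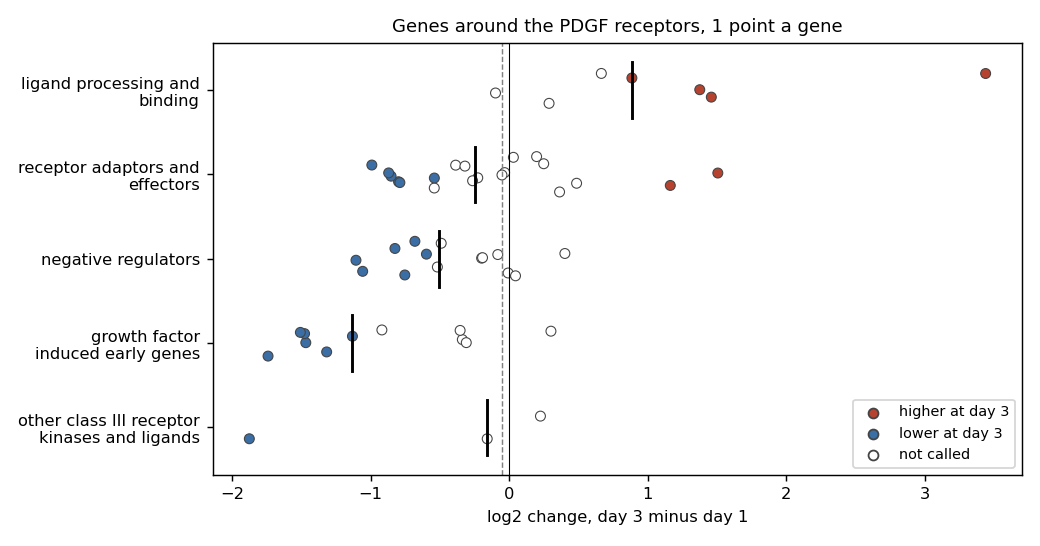
Log2 change, day 3 minus day 1 (horizontal axis), of genes around the PDGF receptors, 1 point a gene in 5 lists. Red points were higher and blue points lower at day 3 by limma, open points did not pass, thick bars are list medians and the dashed line is the median of all tested probes, -0.05. The early genes have the lowest median of the 5 lists, -1.13, and the ligand-binding genes the highest, 0.89.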

How the data were processed

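The deposited intensity values are linear, with 1 value for each probe on each array. They had been quantile normalized by the authors: the sorted columns differ by at most 0.535 units. Per the submitters' processing notes limma was used, with no version; no source used here says whether background was corrected. A second deposited table, before normalization, has 12 columns of per-sample values whose headers match no label, so it was not used here, nor were its detection p-values.

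Values were background corrected with normexp (offset 50) and put on a log2 scale, and tested with lmFit and eBayes in limma 3.58.1 under R 4.3.3, two-sided, for day 3 minus day 1 in 3 rats a day, with Benjamini-Hochberg adjustment over the 11591 probes above the array median on at least 3 arrays. Exact permutation tests used SciPy 1.17.1. Genes were named from the platform annotation. Of the named probes, 13747 matched RefSeq's GRCr8 table, which served for names and for the promoter sequences, where 5 of 6 members matched. Where a gene had several probes, the one with the highest mean signal stood for it.

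The members and gene lists were chosen with earlier results of these data known. Text names all members, the 3 nearest profiles of each tested member (1 of those of Pdgfra is not reported here), the 3 called genes of each pathway list and the 2 called genes of each marker list with the largest change; A2m, Nck1, Plau, Pdpn, Pf4, Cd163, Cd14, Fos, Egr1, Myc, the Spry and Spred genes, Flt3 and Il34, and the genes too dim to be tested, were named after their values were seen. On simulated data for this comparison, over 11591 probes, the fit recovered 51 of 100 2-fold and 90 of 100 4-fold changes, with 1 false call among 142. Only these probes were changed in the simulation, whereas 31.9% of tested probes passed in the data. Deviations from the day means were shuffled for each probe alone, so differences shared by a whole array were lost. These rates are therefore not the error rates of the real comparison.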

Additional observations from a re-analysis of the deposited data

How the results depend on the processing

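Pdgfra kept its direction and passed in all 14 alternatives, each changing 1 choice, with changes of 1.97 to 2.79 and adjusted p of 0.000134 to 0.0403. With the filter dropped and 1 rat left out together, it did not pass in 3 of 6 fits (adjusted p up to 0.0649). Pdgfa passed in none of 14, and its change turned to -0.082 with array weights and -0.0071 with cyclic loess; leaving out 1 rat gave -0.034 to 0.163, the sign turning when rat 4 (-0.0009), rat 7 (-0.023) or rat 3 (-0.034) was left out. With an offset of 16, the change of Pdgfc was 0.32 in place of 0.18 and that of Pdgfd 0.63 in place of 0.37, and without background correction that of Pdgfd was 0.31; a smaller offset compresses dim probes less. Leaving out 1 rat gave 0.14 to 0.25 for Pdgfc, 0.33 to 0.40 for Pdgfd and -0.10 to 0.01 for Pdgfb. The count of changed probes was 6123 with array weights, 1593 at adjusted p under 0.01 and 2016 to 4902 with 1 rat left out, against 3694. Leaving out 1 rat gave 2 to 5 changed genes among those that process or bind the ligands, 4 to 9 among adaptors and effectors, 4 to 7 among restraining genes and 5 to 8 among early genes. The difference in change between Pdgfra and Pdgfa was 1.92 to 2.82 with 1 rat left out and 2.50 with the muscle-rich arrays of rats 3 and 6 left out; this comparison, and the rats left out for lists and for it, were added after seeing the data. No paired analysis was possible because the days share no rat number. Dim signal limits Pdgfb, Pdgfc and Pdgfd.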

Other observations

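A gene outside the family by name, Pdgfrl, encodes a protein that resembles the ligand-binding part of the PDGF receptors, and it was looked at after its values were seen. Its log2 signal was 10.79, 11.47 and 11.04 in day 3 rats 4, 6 and 7, against 7.48, 7.96 and 8.38 in day 1 rats 1, 2 and 3. It rose 8.96-fold, by 3.16 ± 0.27 (SE, limma adjusted p = 0.000723, n = 3 rats a day), higher in all 3 day 3 rats than in any day 1 rat. Of all tested probes, 16.7% rose, and for 49.3% the days did not overlap in either direction. As for Pdgfra, day 3 rat 6 and day 1 rat 3 were the highest of their days. Over the alternatives tried for Pdgfra, its adjusted p lay between 1.5e-05 and 0.0067.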
